A study of Sus scrofa with 9 samples.

Results

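The genes described here encode AP-1, a family of transcription factors, in porcine embryonic fibroblasts, the matrix-producing cells that grow out of pig embryos in a dish. They were measured in untreated cultures (0 h) and in cultures treated with insulin for 48 h or 72 h, with 3 libraries each that the submitters call biological replicates. Before insulin was added, frozen lines of these cells had been thawed and grown, and no genotype, breed, number of embryos, insulin dose or medium is given in the sources used here. The list holds 8 genes, FOS, FOSB, FOSL1, FOSL2, JUN, JUNB, JUND and ATF3, of which 7 were paired with one of the 30477 gene IDs in the files. JUND could not be paired with an ID by its symbol and is not analysed here. The list was chosen on the values of FOS and FOSB, which were below their 0 h level at 48 h and above it at 72 h, so those values are given as a description with no test. The other 5 measured members entered by family membership, and their changes were tested. Untreated cells kept for 48 h or 72 h were not analysed here. Insulin and time in culture therefore cannot be told apart in any comparison below.

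AP-1 is a dimer. FOS proteins (FOS, FOSB, FOSL1 and FOSL2) do not pair with each other and bind DNA with a JUN partner, while JUN proteins can also pair among themselves and with ATF3. FOS, FOSB, JUN and JUNB are immediate early genes, switched on within minutes of a growth factor or stress signal through MAP kinases, and their messenger RNAs are short-lived. For FOS this runs in part through serum response factor. In fibroblasts AP-1 is known for its part in re-entry into the cell cycle and in expression of matrix-degrading proteases.

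RNA levels are given as FPKM, fragments scaled to gene length and to the fragments mapped in the library, which is scaled per length and so allows levels of different genes to be set side by side. The FPKM of all genes summed to between 487858 and 563656 per library, and between 15873 and 16274 genes were above 0, most of them in 48 h replicate 3. The read depth is unknown. All 9 matched fibroblast markers, among them COL1A1 and PDGFRB, had a mean FPKM of at least 1 at each time, with summed levels of 19648 to 20530 at 0 h, 17796 to 18672 at 48 h and 19766 to 20319 at 72 h. COL1A1, COL1A2 and VIM made up most of that sum. The markers moved in different directions. VIM, PDGFRA, LUM, DCN and FAP had higher means at both later times than at 0 h. COL1A1, COL1A2 and COL3A1 had lower means at both, with COL3A1 at 1208, 961 and 1100 at 0 h, 48 h and 72 h. PDGFRB was at 97.7, 95.9 and 122. The mean FPKM at 0 h, 48 h and 72 h was 9.34, 26.9 and 36.4 for PDGFRA, 12.7, 33.8 and 48.3 for LUM, 26.5, 46.9 and 72.2 for DCN, and 6.29, 10.3 and 15.1 for FAP. CDH1 and EPCAM of epithelium, CDH5 and TEK of endothelium, PTPRC and CSF1R of leukocytes and RGS5 of pericytes were below 0.1 FPKM in every library. Other markers of these lists were present. In the same order of times, LYZ of leukocytes had means of 22.8, 22.2 and 23.1. CD14 was at 1.83, 4.03 and 4.05, and CD68 at 0.147, 0.33 and 0.583. The leukocyte sum, mostly LYZ, was 23.88 to 25.95, 25.64 to 27.37 and 25.99 to 28.77. PECAM1 of endothelium was at 0.787, 0.83 and 1.09. NOTCH3 was at 52.7, 20.2 and 24.4, and MCAM at 25.0, 12.9 and 9.60, both from the pericyte list. Some markers moved with the times: the summed level of 4 epithelial markers, nearly all of it KRT8, was 5.56 to 6.77 at 0 h, 12.2 to 13.2 at 48 h and 9.11 to 10.4 at 72 h. The pericyte and smooth muscle sum, nearly all of it ACTA2, was 5016 to 5182 at 0 h, 3981 to 4715 at 48 h and 3962 to 4392 at 72 h. The skeletal muscle sum, nearly all of it DES, was 1423 to 1454, 859 to 939 and 791 to 995. Within that list MYF5 also had lower means later, at 0.68, 0.37 and 0.193. MYOG, at 0.453, 1.28 and 1.15, and MYOD1, at 0.02, 0.133 and 0.0867, had higher ones. CKM was below 0.1 FPKM in every library. The glial and melanocyte sum, mostly MLANA, was 1.94 to 2.93, 1.17 to 2.31 and 5.02 to 6.71, and MLANA, at means of 2.15, 1.41 and 5.52, was lowest at 48 h and highest at 72 h, as FOS and FOSB were. The part of these shifts in the results below was not tested. In such bulk libraries fewer cells of a type and less RNA per cell cannot be told apart.

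FOS, the founding member of the family (ENSSSCG00000002383, chromosome 7, 98449508 to 98451971 of Sscrofa11.1), was the most abundant of the 7 genes at 0 h and at 72 h and among the lower ones at 48 h. Its FPKM was 170.97, 166.98 and 177.14 in replicates 1 to 3 of 0 h, 33.66, 23.76 and 21.83 in those of 48 h, and 379.92, 270.16 and 311.70 in those of 72 h. The 3 times did not overlap, and the 72 h libraries lay furthest apart among themselves. The mean at 48 h was 6.50-fold below that at 0 h, and the mean at 72 h was 1.87-fold above it and 12.1-fold above that at 48 h. On the scale of log2(FPKM + 1), used for all changes below, this is -2.68 ± 0.15 (SE) at 48 h and 0.88 ± 0.15 at 72 h against 0 h. FOS ranked above 96.5% of the 11063 genes with measurable levels at 0 h, above 74.2% at 48 h and above 98.0% at 72 h.

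FOSB, a close relative of FOS (ENSSSCG00000031616, chromosome 6, 51836780 to 51844531), followed the same course at a lower level. Its FPKM was 16.29, 15.90 and 15.30 at 0 h, 2.42, 2.12 and 1.54 at 48 h, and 53.45, 32.83 and 45.17 at 72 h. These values do not overlap between times, and replicate 1 was the highest of each time, as it was for FOS at 48 h and 72 h. The mean was 7.81-fold lower at 48 h than at 0 h and 2.77-fold higher at 72 h, with log2 changes of -2.49 ± 0.16 and 1.39 ± 0.16. With a pseudocount of 0.1 in place of 1, which weighs low levels more, the change at 48 h was -2.93. The fall took FOSB from above 61.6% of measured genes to above 11.7%, and at 72 h it stood above 84.8%. The ratio of FOS to FOSB FPKM within a library was 10.5 to 11.6 at 0 h, 11.2 to 14.2 at 48 h and 6.90 to 8.23 at 72 h, so the 72 h libraries held more FOSB for each unit of FOS than any other library.

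**Figure D1:**
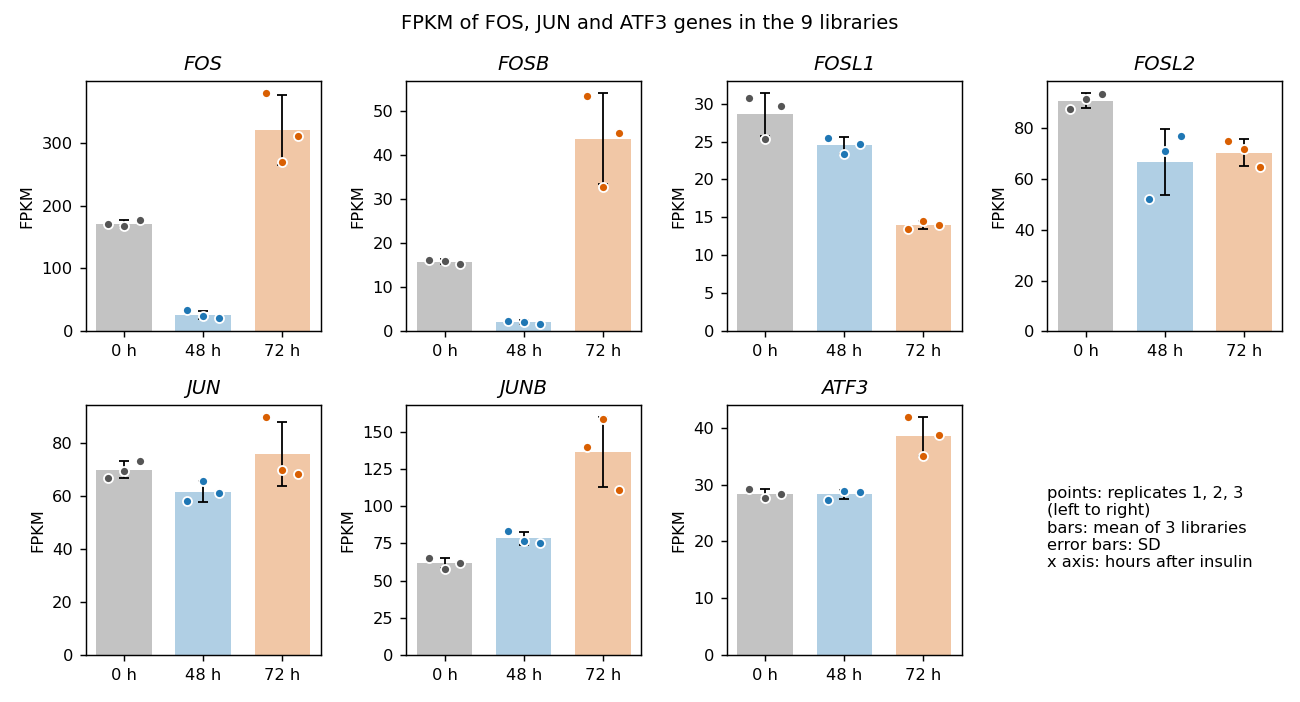
FPKM (vertical axes, linear, from 0) of the 7 measured genes at 0 h, 48 h and 72 h after insulin (horizontal axes), with points for replicates 1 to 3, bars for the mean and error bars for the SD. FOS drops to 21.8 to 33.7 at 48 h and reaches 270 to 380 at 72 h, whereas FOSL1 is lowest at 72 h and JUNB is highest there.

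Of the 5 members tested, 1 rose and 2 fell at 48 h against 0 h. Over all 11063 genes tested, 49.9% were called at 48 h (Benjamini-Hochberg adjusted p below 0.05 in limma), 27.6% as higher and 22.4% as lower. At 72 h against 0 h, 2 rose and 2 fell, where 45.5% of all genes were called, 23.0% as higher and 22.5% as lower. Between 48 h and 72 h, 2 rose and 1 fell, and 25.4% of all genes were called, 9.17% as higher and 16.3% as lower. With 5 genes and such shares over all genes, the counts are a description of these members.

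FOSL1 (FRA-1), a FOS relative without the strong activation domain of FOS (ENSSSCG00000012967, chromosome 2, 6430158 to 6436173), was lowest at 72 h, when FOS and FOSB were highest. Its FPKM was 30.69, 25.37 and 29.68 at 0 h, 25.48, 23.34 and 24.65 at 48 h, and 13.50, 14.47 and 13.98 at 72 h. The 72 h libraries lay below all others, and those of 0 h and 48 h overlapped. FOSL1 fell by 0.98 ± 0.08 at 72 h against 0 h (adjusted p = 2.4e-06), to a mean 2.04-fold lower, and by 0.77 ± 0.08 against 48 h (adjusted p = 7.96e-05). The change at 48 h was -0.21 ± 0.08 (adjusted p = 0.0396). That call was lost without 0 h replicate 1 (-0.16, adjusted p = 0.154), 0 h replicate 3 (-0.18, 0.130), 48 h replicate 2 (-0.18, 0.131), 48 h replicate 3 (-0.22, 0.0603) or 72 h replicate 1 (-0.21, 0.0508), and with no filter on low values (0.0645).

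FOSL2 (FRA-2), the other FOS relative of this kind (ENSSSCG00000032527, chromosome 3, 110820403 to 110842903), was lower at both later times and did not differ between them beyond its spread. Its FPKM was 87.53, 91.75 and 93.49 at 0 h, 52.31, 71.09 and 77.05 at 48 h, and 74.95, 71.87 and 64.61 at 72 h. The 0 h libraries lay above all others, and 48 h replicate 1 was well below the other libraries of its time. FOSL2 fell by 0.46 ± 0.12 at 48 h (adjusted p = 0.00945) and by 0.37 ± 0.12 at 72 h (adjusted p = 0.0287). The difference between 72 h and 48 h was 0.09 ± 0.12 (adjusted p = 0.596). Without 48 h replicate 1 the change at 48 h was -0.29, over 1.5 times smaller, and remained called. The call at 72 h was lost without any 1 of the 0 h libraries, 72 h replicate 2 or 72 h replicate 3 (adjusted p from 0.0501 to 0.0916), and with no filter on low values (0.0773).

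JUNB, a JUN relative that activates less strongly than JUN in most settings (ENSSSCG00000013735, chromosome 2, 66214086 to 66219435), had the largest rise among the 5 tested members. Its FPKM was 65.04, 58.02 and 62.10 at 0 h, 83.11, 76.28 and 75.51 at 48 h, and 139.45, 158.44 and 111.17 at 72 h. The 3 times did not overlap, and unlike FOS, FOSB, JUN and ATF3, JUNB was highest in replicate 2 of 72 h. JUNB rose by 1.12 ± 0.11 at 72 h against 0 h (adjusted p = 1.34e-05), to a mean 2.21-fold higher, and by 0.78 ± 0.11 against 48 h (adjusted p = 7.14e-04). At 48 h it rose by 0.34 ± 0.11 (adjusted p = 0.0244). The 48 h call was lost under quantile normalization (0.18, adjusted p = 0.137), at equal FPKM sums (0.20, 0.0999) and with no filter on low values (0.0653), and without 0 h replicate 2 (0.30, 0.0828), 0 h replicate 3 (0.34, 0.0581) or 48 h replicate 1 (0.30, 0.0784).

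JUN, the founding JUN gene (ENSSSCG00000031912, chromosome 6, 153686425 to 153687635), varied least in its mean among the measured FOS and JUN genes. Its FPKM was 66.87, 69.53 and 73.18 at 0 h, 58.07, 65.64 and 61.14 at 48 h, and 89.85, 69.60 and 68.05 at 72 h. The 48 h libraries lay just below those of the other times, and 72 h replicate 1 stood well above the other libraries of 72 h. The changes were -0.18 ± 0.10 at 48 h (adjusted p = 0.152), 0.11 ± 0.10 at 72 h (adjusted p = 0.403) and 0.29 ± 0.10 between the later times (adjusted p = 0.0543), none of which passed the test. At equal FPKM sums the changes were -0.31 at 48 h (adjusted p = 0.0268) and 0.37 from 48 h to 72 h (adjusted p = 0.0297), both called. Both were also called under quantile normalization (-0.34, adjusted p = 0.0131, and 0.35, adjusted p = 0.0229). The change at 48 h was called without 72 h replicate 1 (adjusted p = 0.043). The change between the later times was called without 72 h replicate 2 (0.34, adjusted p = 0.0451) or 72 h replicate 3 (0.36, 0.0409), with library weights (0.00668, weights whose estimation did not converge) and with a mean FPKM of at least 5 (0.0492).

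ATF3, a stress-induced member of the ATF branch that can repress transcription as a dimer with itself (ENSSSCG00000015595, chromosome 9, 130772259 to 130829678), rose at 72 h. Its FPKM was 29.21, 27.68 and 28.35 at 0 h, 27.29, 28.85 and 28.65 at 48 h, and 41.87, 35.01 and 38.72 at 72 h. The 0 h and 48 h libraries overlapped within a narrow range, and all 72 h libraries lay above them. ATF3 rose by 0.42 ± 0.07 at 72 h against 0 h (adjusted p = 5.48e-04) and by 0.43 ± 0.07 against 48 h (adjusted p = 0.00161), and its change at 48 h was -0.01 ± 0.07 (adjusted p = 0.937).

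**Figure D2:**
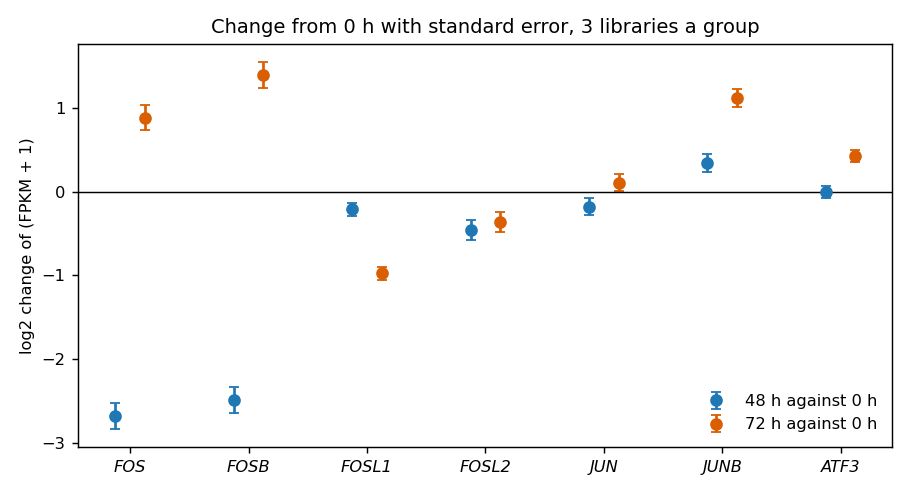
Change of log2(FPKM + 1) from 0 h (vertical axis) for each of the 7 measured genes (horizontal axis), at 48 h in blue and 72 h in orange, with standard errors from 3 libraries a group. FOS and FOSB lie below -2 at 48 h and above 0 at 72 h, FOSL1 and FOSL2 lie below 0 at both times, and JUNB lies above 0 at both.

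Libraries of the compared times did not overlap for 3 of the 5 tested members at 48 h against 0 h (FOSL2, JUN and JUNB), for 4 at 72 h against 0 h (all but JUN) and for 4 at 72 h against 48 h (all but FOSL2). The same held for 60.0%, 58.6% and 38.9% of all genes tested.

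The order of the levels changed with time. At 0 h it ran FOS, FOSL2, JUN, JUNB, FOSL1, ATF3, FOSB, and each gene's libraries lay above those of the next except for FOSL1 and ATF3, which overlapped. At 48 h it ran JUNB, FOSL2, JUN, ATF3, FOS, FOSL1, FOSB, with JUNB, FOSL2 and JUN overlapping from each to the next at 61.6 to 78.3 FPKM on average, and ATF3, FOS and FOSL1 likewise at 24.5 to 28.3. At 72 h it ran FOS, JUNB, JUN, FOSL2, FOSB, ATF3, FOSL1, with overlaps between JUN and FOSL2 and between FOSB and ATF3. FOSL1 was thus last at 72 h, below FOSB, whose mean it exceeded at 0 h and 48 h.

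The 4 FOS family genes summed to 307 ± 7.92 FPKM (SD, n = 3) in untreated cells, to 120 ± 5.62 at 48 h and to 449 ± 67.3 at 72 h. FOS held 55.9% ± 0.237 of that sum in untreated cells, 22.3% ± 6.43 at 48 h and 71.3% ± 1.73 at 72 h. FOSL2 held 29.6% ± 0.965 at 0 h, 55.5% ± 8.41 at 48 h and 15.9% ± 2.24 at 72 h, and so was the main FOS family transcript in every 48 h library. FOSL1 held 9.30% ± 0.80 at 0 h, 20.5% ± 1.64 at 48 h and 3.17% ± 0.566 at 72 h, and FOSB 5.16% ± 0.271, 1.71% ± 0.45 and 9.68% ± 1.08. These shares follow from the FOS and FOSB values that chose the list and carry no test. The sum of JUN and JUNB was 132 ± 3.88, 140 ± 2.85 and 212 ± 28.6 FPKM at the 3 times, with JUND left out. The FOS family sum was 2.32 to 2.35 times the JUN and JUNB sum in untreated cells, 0.807 to 0.915 times at 48 h and 1.71 to 2.43 times at 72 h, so FOS family transcripts were outnumbered per length in the 48 h libraries.

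**Figure D3:**
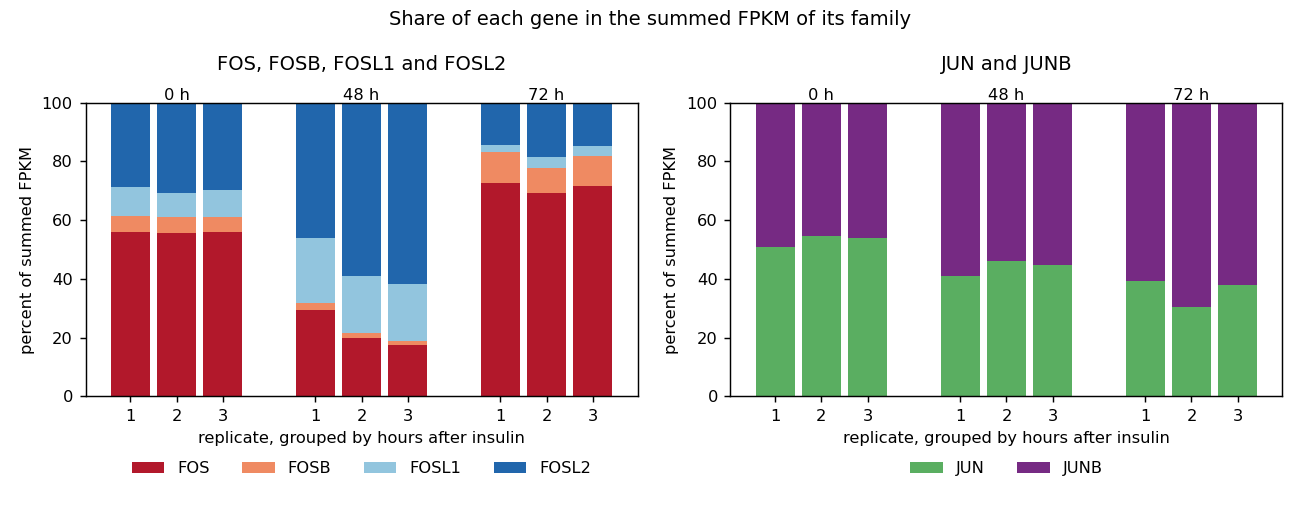
Percent of the summed FPKM held by each gene (vertical axes) in each of the 9 libraries (horizontal axes, replicates 1 to 3 of 0 h, 48 h and 72 h), for the 4 FOS family genes on the left and for JUN and JUNB on the right. FOSL2 holds 45.9% to 61.6% of the FOS family sum at 48 h, and JUNB holds 45.5% to 49.3% of the JUN and JUNB sum at 0 h and 60.8% to 69.5% at 72 h.

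Ratios of 2 members within a library are nearly unaffected by how libraries are scaled to each other. Of the ratios set out for testing, 3 did not involve JUND, and each was tested over the 3 times by an exact permutation test of the F statistic (1680 arrangements of the 9 libraries, smallest possible p = 0.00357), with adjustment over the 3. The ratio of JUNB to JUN FPKM was 0.973, 0.835 and 0.849 at 0 h, 1.43, 1.16 and 1.24 at 48 h, and 1.55, 2.28 and 1.63 at 72 h. All 0 h libraries held less JUNB than JUN, all later ones held more, and the 3 times did not overlap. On the log2 scale the mean JUNB to JUN ratio rose by 0.52 to 48 h and by 1.01 to 72 h (exact permutation p = 0.00357, adjusted p = 0.0107).

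The ratio of FOSL1 to FOSL2 was 0.351, 0.277 and 0.318 at 0 h, 0.487, 0.328 and 0.320 at 48 h, and 0.180, 0.201 and 0.216 at 72 h. The 72 h libraries lay below all others, and 48 h replicate 1, in which FOSL2 was lowest, stood above the rest. The mean log2 ratio changed by 0.25 to 48 h and by -0.61 to 72 h (exact permutation p = 0.0143, adjusted p = 0.0179). Without 48 h replicate 1 the change to 48 h was 0.05 and that to 72 h was -0.61. The ratio of ATF3 to JUN was 0.437, 0.398 and 0.387 at 0 h, 0.470, 0.440 and 0.469 at 48 h, and 0.466, 0.503 and 0.569 at 72 h. Its mean log2 ratio changed by 0.17 and 0.32 (exact permutation p = 0.0179, adjusted p = 0.0179), and the 48 h and 72 h libraries overlapped. This last result was lost without 0 h replicate 2, 0 h replicate 3 or 72 h replicate 3 (adjusted exact permutation p = 0.05, 0.0714 and 0.0643).

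**Figure D4:**
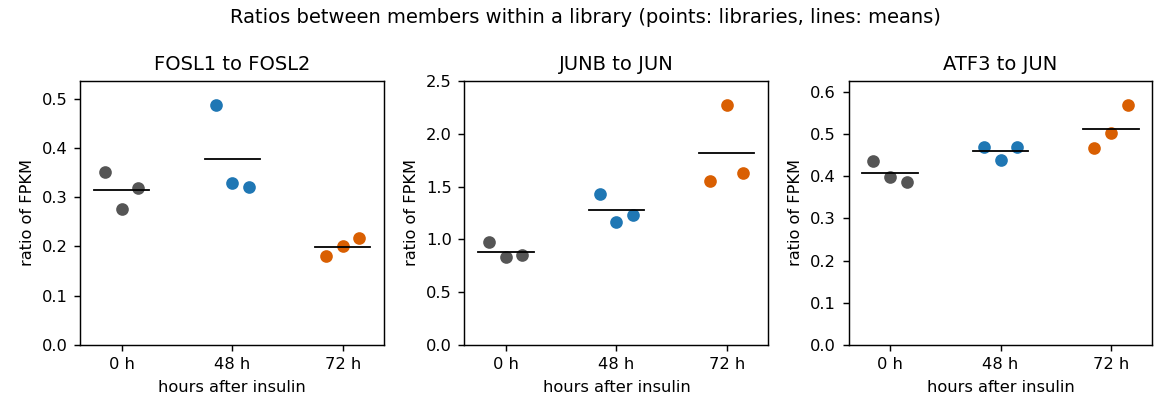
Ratio of FPKM between 2 genes within each library (vertical axes, linear, from 0) at 0 h, 48 h and 72 h (horizontal axes), with points for libraries and lines for the mean of 3. The JUNB to JUN ratio lies at 0.835 to 0.973 at 0 h and at 1.55 to 2.28 at 72 h, and the FOSL1 to FOSL2 ratio is lowest at 72 h, at 0.180 to 0.216.

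Genes linked to AP-1 in the textbook view were read from 5 lists, whose counts of called genes stand against the shares over all genes: 27.6% higher and 22.4% lower at 48 h, 23.0% and 22.5% at 72 h, and 9.17% and 16.3% from 48 h to 72 h. The dimer partners outside the FOS and JUN branches had 8 tested genes of 12. Of these, 5 rose and 1 fell at 48 h, and 4 rose and 1 fell at 72 h, with median log2 changes of 0.40 and 0.21, where the medians of all tested genes were 0.02 and -0.01. From 48 h to 72 h 1 rose and 2 fell, with a median of 0.09. BATF2 is 1 of the 5 rises at 48 h and 1 of these 2 falls. Its libraries held 0.57 to 0.62 FPKM at 0 h, 1.30 to 1.68 at 48 h and 0.61 to 0.91 at 72 h. BATF2 passed the filter of 1 FPKM in 3 libraries only through the 48 h libraries, where it was highest, so its calls are given no weight. The 1 rise was 0 without 48 h replicate 2 and 2 without 0 h replicate 2 or 48 h replicate 3. The 2 falls were 0 without 48 h replicate 1 and 1 without any 1 of 48 h replicates 2 and 3 and 72 h replicates 1 and 2. MAF, a large MAF factor, rose from 2.91 ± 0.78 FPKM (SD, n = 3) to 7.85 ± 0.743 at 48 h and 9.78 ± 0.58 at 72 h, by 1.19 ± 0.13 and 1.48 ± 0.13. MAFF, a small MAF factor without an activation domain, rose by 0.53 and 0.70, and BATF3, which pairs with JUN, rose by 0.73 and 0.37 from a level of 1.39 ± 0.17 FPKM. ATF2, a JUN partner activated by stress kinases, fell by 0.56 at 48 h and by 0.31 at 72 h, the latter called with all libraries (adjusted p = 0.027) but with adjusted p from 0.0631 to 0.0994 with no filter on low values and without any 1 of the 0 h libraries, 72 h replicate 1 or 72 h replicate 2. JDP2, a repressor of AP-1, and TMED10 flank FOS on the RefSeq map of chromosome 7. JDP2 rose by 0.28 at 48 h and by 0.27 at 72 h, while TMED10 fell by 0.23 at 48 h (adjusted p = 0.0296) and was at -0.02 at 72 h.

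Kinases and factors upstream of FOS and JUN transcription had 21 tested genes of 24, of which 3 rose and 3 fell at 48 h, and 3 rose and 4 fell at 72 h, with medians of -0.025 and -0.03. From 48 h to 72 h 0 rose and 5 fell in limma, with a median of 0.03, and at an unadjusted p below 0.05 2 rose and 5 fell. Without 48 h replicate 3, 6 fell at 48 h and 2 rose from 48 h to 72 h, and without 72 h replicate 3 the 5 falls were 3. MAPK3 (ERK1), the kinase that carries growth factor signals to the nucleus, rose from 63.0 ± 1.04 FPKM to 98.6 ± 7.76 at 48 h and 98.5 ± 3.36 at 72 h (0.64 ± 0.06 at both). ELK3, a partner of serum response factor that can repress FOS, rose by 0.46 and 0.53. MAP2K4 and MAPK8, a kinase pair of the JNK pathway that phosphorylates JUN, fell by 0.38 and 0.39 at 48 h and by 0.36 and 0.37 at 72 h. None of these 4 was called between 48 h and 72 h, with differences of 0.00 to 0.07, except MAP2K4 with library weights (0.12, adjusted p = 0.0456). The 5 genes that fell from 48 h to 72 h were MAPK7, MAP2K7, RPS6KA1, SRF and MRTFA, with changes of -0.24 to -0.37. SRF, which encodes serum response factor, was at -0.06 at 48 h (adjusted p = 0.509) and fell by 0.33 at 72 h (adjusted p = 0.00244), and its coactivator MRTFA was at -0.02 (adjusted p = 0.835) and fell by 0.35 (adjusted p = 0.00185). These 5 were named after their values were seen. At 48 h 9 of the 21 genes fell at equal FPKM sums, and 7 fell and 6 rose with library weights.

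All 9 genes acting in turnover of FOS and JUN RNA or protein were tested. At 48 h 1 rose and 3 fell, and at 72 h 2 rose and 3 fell, with medians of -0.02 and -0.11. From 48 h to 72 h 2 rose and 1 fell, with a median of 0.10. At 48 h 6 fell and 2 rose with library weights, and 5 fell at equal FPKM sums. Without 48 h replicate 3, 2 rose at 48 h and 2 fell from 48 h to 72 h. ZFP36 (tristetraprolin), which binds AU-rich elements and speeds decay of FOS-type messenger RNAs, was at 25.2 ± 0.33 FPKM at 0 h, 21.1 ± 2.1 at 48 h and 33.6 ± 3.53 at 72 h. It fell by 0.25 at 48 h (adjusted p = 0.0318), a call that was lost without any 1 of the 0 h libraries, 48 h replicate 2 or 48 h replicate 3 (adjusted p from 0.0648 to 0.0937) and with no filter on low values (0.0638). It rose by 0.39 at 72 h (adjusted p = 0.00347). ZFP36L1, its relative, rose at both times (0.42 and 0.73), and FBXW7, the ubiquitin ligase subunit that marks JUN for degradation, fell at both (by 0.33 and by 0.48).

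Among other immediate early genes 18 of 25 were tested. At 48 h 3 rose and 7 fell, with a median of -0.08, and at 72 h 11 rose and 3 fell, with a median of 0.42. From 48 h to 72 h 10 rose and 3 fell, with a median of 0.52 against -0.03 for all tested genes. The 3 falls were 1 under quantile normalization and 1 at equal FPKM sums. EGR1, a zinc finger factor induced by the same pathway as FOS, was at 34.02, 33.02 and 33.51 FPKM at 0 h, 11.12, 9.76 and 8.79 at 48 h, and 94.19, 95.80 and 78.90 at 72 h. As for FOS, its times did not overlap. It fell by 1.67 ± 0.09 at 48 h (adjusted p = 6.73e-07) and rose by 1.39 ± 0.09 at 72 h (adjusted p = 6.42e-07). EGR2 had a mean of 0.237 FPKM at 0 h, 0.467 at 48 h and 1.24 at 72 h and EGR3 stayed at or below 0.51 in every library, so neither was tested.

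Other genes of this list had other courses. NR4A1, a nuclear receptor that is also an immediate early gene, rose at both times, from 3.12 ± 0.114 FPKM to 6.97 ± 0.35 and 8.99 ± 2.54 (0.95 ± 0.14 and 1.25 ± 0.14), and IER3, a regulator of survival, rose by 0.70 and 0.72. HBEGF, a ligand of the EGF receptor, was at 0.00 at 48 h (adjusted p = 0.977) and fell by 0.61 at 72 h (adjusted p = 0.0013). KLF10, a TGF-beta response factor, was at 0.06 (adjusted p = 0.432) and fell by 0.19 at 72 h (adjusted p = 0.0161), a call lost without 0 h replicate 1 (0.0585), 0 h replicate 3 (0.0509) or 72 h replicate 2 (0.0501). Without 0 h replicate 1 or 0 h replicate 3, 1 of the 3 falls at 72 h was left. Picked after their values were seen, DUSP1, a phosphatase of MAP kinases, KLF4, a factor of growth arrest, TRIB1, a pseudokinase, and CCN2, a matricellular protein, fell at 48 h (by 0.29, by 0.39, by 0.37 and by 0.24) and rose at 72 h (0.41, 0.35, 0.58 and 0.43). For CCN2 at 48 h the adjusted p was 0.0334. KLF2, PTGS2 and IER2 were not called at 48 h (-0.21, -0.15 and 0.09, adjusted p = 0.169, 0.314 and 0.605) and rose by 1.05, 0.97 and 0.70 at 72 h. CCN1, also a matricellular protein, fell by 0.79 at 48 h (adjusted p = 3.42e-06) and by 0.17 at 72 h (adjusted p = 0.0322), and MYC fell by 0.34 at 48 h (adjusted p = 0.00383) and was at 0.08 at 72 h (adjusted p = 0.399). These comparisons share the 0 h libraries with those of FOS.

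Of 26 genes listed as AP-1 targets 19 were tested, of which 10 rose and 4 fell at 48 h, with a median of 0.32, and 8 rose and 4 fell at 72 h, with a median of 0.06. EREG is counted among the rises at both times. Its libraries held 0.34 to 0.60 FPKM at 0 h, 1.22 to 1.40 at 48 h and 0.81 to 1.16 at 72 h. EREG passed the filter on low values only through the later times, where it was higher, so its calls are given no weight. From 48 h to 72 h 4 rose (MMP1, MMP14, VEGFA and SPP1) and 6 fell (PLAUR, CCND1, CD44, CXCL8, LIF and AREG), with a median of -0.16, and 3 fell without 72 h replicate 3. The fall of CXCL8 (-0.70, adjusted p = 0.0161 in limma) was not called with no filter on low values (0.0555). Nor was it called without 72 h replicate 1 (-0.56, 0.0604) or 72 h replicate 3 (-0.60, 0.0591). MMP1, interstitial collagenase, a standard AP-1 target, was at 14.50, 13.65 and 12.77 FPKM at 0 h, 20.04, 18.76 and 20.71 at 48 h, and 31.67, 39.43 and 34.22 at 72 h. Its times did not overlap and it rose by 0.51 ± 0.08 and 1.30 ± 0.08 against 0 h. CXCL8, a chemokine for neutrophils, rose from 3.34 ± 0.514 FPKM to 12.6 ± 1.13 at 48 h and 7.59 ± 2.64 at 72 h (1.65 ± 0.17 and 0.95 ± 0.17). SPP1, osteopontin, fell from 217 ± 1.57 FPKM to 85.8 ± 3.01 and 106 ± 8.97 (-1.33 ± 0.07 and -1.03 ± 0.07).

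**Figure D5:**
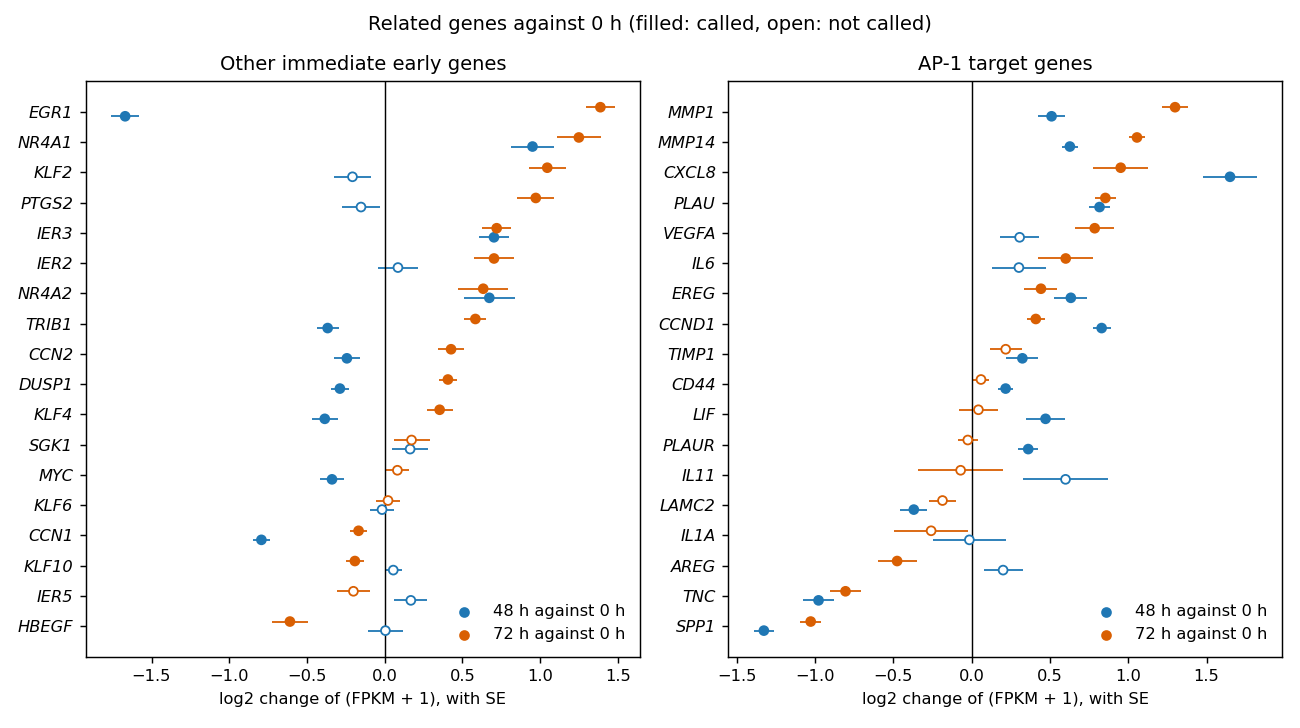
Change of log2(FPKM + 1) from 0 h with its standard error (horizontal axes) for the tested genes (rows) of the other immediate early genes on the left and of all but 1 of the AP-1 targets on the right, at 48 h in blue and 72 h in orange, filled where called. EGR1 lies at -1.67 at 48 h and 1.39 at 72 h, while SPP1 lies below -1 at both times.

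The genes nearest to FOS in their course were sought by the root mean square difference, over the 9 libraries, between log2(FPKM + 1) values centred on each gene's own 0 h mean, as a description with no test. The nearest were FOSB at 0.33 and EGR1 at 0.67, followed at a distance by TXNIP, an inhibitor of glucose uptake, at 1.102, GPNMB, a membrane glycoprotein, at 1.14 and HES1, a Notch target, at 1.18. The nearest to FOSB were FOS at 0.33, EGR1 at 0.51, GPNMB at 1.03, DUSP6, a phosphatase of ERK, at 1.14 and TXNIP at 1.15. FOS itself changed by up to 3.56 between times, and among the 9875 tested genes with a symbol only FOSB and EGR1 came within 1 of its course. The shared course of FOS and FOSB chose the list, so their nearness to each other is not a finding. The difference is not scaled to the size of a gene's change, so genes with the same shape but smaller changes lie far from FOS by this measure. For JUNB, the only tested member whose means spanned at least 1, the nearest were SAT1, an enzyme of polyamine breakdown, at 0.12, FBLN2, a matrix protein, at 0.14 and ASAH1, a lysosomal ceramidase, at 0.15.

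Of the genes next to JUNB on chromosome 2, HOOK2 rose by 0.34 and 0.88 at 48 h and 72 h and PRDX2 rose by 0.64 and 0.46. CCDC85B, whose RefSeq span begins 614 bases beyond that of FOSL1, rose by 0.90 at 48 h and was at 0.33 at 72 h (adjusted p = 0.0586), where FOSL1 fell. RTN2, next to FOSB, rose by 0.53 and 0.31. BABAM2 of FOSL2, FGGY and MYSM1 of JUN and NENF of ATF3 were called at neither time, with changes of -0.20 to 0.27. Use of strand in counting is not stated in those sources. The neighbours were picked as the nearest protein-coding genes whose RefSeq spans lie outside those of the members. Genes that overlap a member were therefore passed over, and overlap was not examined. The flanking genes were examined after the members' values were known.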

How the data were processed

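RNA of 9 libraries, 3 each at 0 h, 48 h and 72 h, was measured after removal of ribosomal RNA, per the labels' protocols. The deposited values are FPKM, made by the authors per the file headers, 1 value per gene and library. Named without roles in the submitters' processing notes are the build Sscrofa11.1, RSEM 1.2.28, featureCounts 2.0.2, HISAT2 2.1.0 and DESeq2. Counting error cannot be computed from FPKM, and the spread between libraries sets the precision.

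Of 30477 gene IDs, 14864 had a symbol. Positions were looked up by symbol in RefSeq on Sscrofa11.1. The fit took the 11063 genes that reached 1 FPKM in 3 or more libraries, and all 7 measured members exceeded that in every library. Values of log2(FPKM + 1) were fitted on group alone in limma 3.58.1 under R 4.3.3, with a trended prior, two-sided, with Benjamini-Hochberg adjustment over the 11063 genes. The script was tested on simulated data. The members and lists were chosen with earlier results of these data known. Named genes were the members, per list and comparison with 0 h the 2 called genes with the largest change and up to 2 against the majority, EGR1 to EGR3, and the nearest profiles (5 for FOS and FOSB, 3 for other members whose means spanned at least 1). JUND and 2 planned ratios with it were not analysed, and 1 AP-1 target that the rule names is counted but not reported here. Settings varied were the pseudocount (0.1), no filter and a mean FPKM of at least 5, quantile normalization, equal FPKM sums, library weights (whose estimation stopped before limma reached its tolerance), a replicate block and each library left out.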

Additional observations from a re-analysis of the deposited data

Results flagged for a closer look

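The changes from 0 h differed between 48 h and 72 h for FOS and FOSB, whose values chose the list, and for FOSL1, JUNB and ATF3 among the 5 tested members. FOS and FOSB lay below 0 h in every 48 h library and above it in every 72 h library, with differences of 3.56 and 3.87 on the log2 scale between the later times. That difference was not tested, since it chose the list. FOSL1 at -0.77, JUNB at 0.78 and ATF3 at 0.43 were called between 72 h and 48 h by limma (adjusted p = 7.96e-05, 7.14e-04 and 0.00161), with every 72 h library on 1 side of every 48 h library. The 72 h libraries of JUN, which was not called, also lay above those of 48 h. Of all 11063 genes tested, 25.4% were called between these times, and the libraries of 38.9% did not overlap.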

How the results depend on the processing

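Over 16 settings, the changes of FOSL1, JUNB and ATF3 at 72 h against 0 h kept their direction and their call, with ranges of -1.06 to -0.93, 1.002 to 1.26 and 0.36 to 0.49. FOS ranged from -2.86 to -2.56 at 48 h and from 0.75 to 0.999 at 72 h, and FOSB from -2.93 to -2.36 and from 1.23 to 1.58. Among the 5 tested members, the 1 rise at 48 h became 0 with no filter on low values, under quantile normalization and at equal FPKM sums (where the median change of all genes was -0.10 against 0.02), and 0 to 1 with a library left out. The 2 falls at 48 h became 3 under quantile normalization and at equal FPKM sums. The 2 falls became 1 at 48 h and 1 at 72 h with no filter, and 1 to 2 at each time with a library left out. The cause of these moves and of those below was not tested.

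Among dimer partners, rises at 48 h were 3 with a mean FPKM of at least 5, falls at 48 h were 2 at equal sums and 2 with library weights, and falls at 72 h were 0 with no filter and 0 to 1 with a library left out. Of upstream genes, 9 fell at 48 h at equal sums, 7 fell and 6 rose with library weights, and 2 to 6 fell with a library left out, 6 without 48 h replicate 3. Of turnover genes, 5 fell at 48 h at equal sums, 6 fell and 2 rose with library weights, and 1 to 2 rose with a library left out, 2 without 48 h replicate 3. From 48 h to 72 h, dimer partners had 3 rises with library weights and 0 falls with a mean FPKM of at least 5, and 0 to 2 rises and 0 to 2 falls with a library left out. Upstream genes had 1 rise under quantile normalization, 4 with library weights and 1 with the replicate block, 2 falls at equal sums, and 0 to 2 rises and 3 to 5 falls with a library left out. Turnover genes had 2 falls with a mean FPKM of at least 5, 0 under quantile normalization, 0 at equal sums, 3 with library weights and 1 to 2 with a library left out, and AP-1 targets had 3 to 6 falls with a library left out. Of immediate early genes, 1 fell from 48 h to 72 h under quantile normalization and 1 at equal sums, and 1 to 3 fell at 72 h against 0 h with a library left out.

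With the replicate number as a block, the ATF3 to JUN ratio (0.32) had an adjusted exact permutation p of 0.0556, and 0.24 to 0.38 was its range with a library left out. The replicate block changed no call of the 5 tested members. Deviations from the group means of same-numbered libraries had correlations of -0.07 to 0.19 over 9 pairs, 2 of them above 0.1. Differently numbered libraries had correlations of -0.18 to 0.17. Whether the numbers pair the libraries was not tested. Read depth is unknown, which limits what can be said of genes near 0 such as EGR3.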
